A study of Gallus gallus with 24 samples.

Results

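GYS2, which encodes the glycogen synthase of liver, and GBE1, which encodes the glycogen branching enzyme, were followed across the liver of growing chickens of a fat and a lean line. The probes were taken by the gene symbol in the platform annotation, which gave 2 of the 6428 named genes and 4 of the 19200 probes on the array. GYS2 (Entrez gene 418201) was represented by probe 12.14.15, named for its place in block 12, row 14 and column 15, and by probe 41.14.11. GBE1 (Entrez gene 427964) was represented by probes 33.12.17 and 33.8.12. All 4 probes had a value on each of the 24 arrays, and both genes passed the filter on missing values.

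Chickens of the fat line (FL) and the lean line (LL), divergently selected on abdominal fat for 7 generations, were reared under an ordinary broiler regime and sampled at 6 ages, every other wk from 1 to 11 wk. Each two-colour cDNA array compared the liver RNA of an FL chicken with that of an LL chicken of the same age, and 4 arrays were hybridized per age from 4 biological replicates per genotype. The FL sample was in channel 1 on replicates 1 and 3 of each age and in channel 2 on replicates 2 and 4. No transgene, allele or drug set the groups apart, and the sex of the birds was not given in the sources used here.

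Liver stores glucose as glycogen. Glycogen synthase lengthens the chains of the polymer from UDP-glucose, and the branching enzyme moves short stretches of a chain to make branch points, so that the pair acts in sequence on the same particle. GYS2 is the form of the synthase found mainly in liver, whereas GBE1 is the branching enzyme of liver and of other tissues.

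The deposited value of a probe was a log ratio of the channels of an array, taken here as log2. Neither the direction of the ratio nor whether dye-swapped columns had already been turned was stated, so each comparison was made under both readings. In the turned reading, a value had its sign reversed on the arrays with the FL sample in channel 1. In the as-deposited reading, the columns were averaged as given. If the columns had not been turned before deposit, an as-deposited mean holds a difference between the channels and not between the lines. If they had been turned, the same holds for a turned mean. Values are reported with their sign and are not assigned to FL or LL, and each estimate is given with its standard error (SE). Since only ratios were deposited, the level of either transcript, and the identity of the tissue by the level of its markers, could not be examined, nor could fewer cells of a type be told apart from less RNA per cell.

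An array gave a value for 18795 to 18970 probes. Medians ranged from -0.02 to 0.03 except on 7 wk replicate 1, where the median was 0.33 and 91.2% of the values were positive. This array and 11 wk replicate 4 were the most alike of all pairs (r = 0.798 over probes, against 0.705 for the next pair). The column of 1 wk replicate 4 correlated under -0.3 with 4 of the 11 other arrays of its dye orientation and at 0.57 with 1 wk replicate 3, which had the opposite orientation, so that its direction was not settled. A profile common to both dye orientations was present as deposited, with r over 0 between a column and the average of the remaining ones for 22 of 24 columns. Results below that rest on these arrays are also given without them or with the sign of 1 wk replicate 4 turned.

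The GYS2 probes gave different pictures. As deposited, probe 41.14.11 had a log2 ratio from -0.95 to 0.30 with a median of -0.25, and it was negative on 21 of 24 arrays. Its 3 positive values all came from the youngest birds. At 1 wk the values on replicates 1 to 4 were 0.07, -0.27, 0.30 and 0.19. From 3 wk on every array was negative. The 3 wk values were -0.06, -0.23, -0.45 and -0.61, and the 5 wk values were -0.09, -0.58, -0.0024 and -0.61. At 7 wk they were -0.18, -0.34, -0.61 and -0.35, at 9 wk -0.02, -0.58, -0.18 and -0.95, and at 11 wk -0.05, -0.15, -0.88 and -0.44. The lowest value of the probe therefore stood on 9 wk replicate 4 and the next on 11 wk replicate 3, which had opposite dye orientations. Among all probes, 16.8% were negative on 4 of 4 arrays at 3 wk, 13.9% at 5 wk and 3.15% at 7 wk. At 9 wk the share was 16.8%, and at 11 wk 15.4%.

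Probe 12.14.15 of the same gene was positive on 16 of 24 arrays, between -0.44 and 0.71 with a median of 0.11. Its values at 1 wk were 0.19, 0.07, -0.28 and -0.44, and at 3 wk -0.18, -0.02, 0.14 and 0.03. At 5 wk, values of -0.10, -0.08, 0.03 and -0.37 were measured. All 4 arrays were positive at 7 wk, with 0.71, 0.33, 0.17 and 0.35, and again at 11 wk, with 0.22, 0.08, 0.55 and 0.36. At 9 wk replicates 1 to 3 had 0.35, 0.23 and 0.22, while replicate 4 had -0.24. The highest value belonged to 7 wk replicate 1, the array whose median was 0.33 over all probes. At 7 wk, 22.6% of all probes were positive on 4 of 4 arrays, and at 11 wk 15.9%.

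Of the GBE1 probes, 33.12.17 lay between -1.01 and 0.74 with a median of -0.27 and was negative on 17 of 24 arrays. At 1 wk it had -0.25, -0.03, 0.32 and 0.02, and at 3 wk 0.04, -0.36, -0.10 and -0.71. The 5 wk values split by dye orientation, with 0.74 and 0.19 on replicates 1 and 3 against -0.46 and -0.57 on replicates 2 and 4. Such a split at 5 wk was common, at 45.7% of all probes. At 7 wk the values were 0.0043, -0.27, -0.27 and -0.44. All 4 arrays of 9 wk were negative, at -0.22, -1.01, -0.81 and -0.34, and at 11 wk 3 of 4 were negative, at -0.40, 0.41, -0.62 and -0.61. The array at 0.41 was 11 wk replicate 2. At 9 wk, 16.8% of all probes were negative on 4 of 4 arrays.

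Probe 33.8.12 had a narrower range, from -0.49 to 0.48 with a median of -0.06, and was negative on 18 of 24 arrays. Values at 1 wk were -0.02, -0.05, 0.33 and 0.27, and at 3 wk 0.04, -0.19, -0.06 and -0.09. It repeated the split at 5 wk, seen for 45.7% of all probes, with 0.48 and 0.16 on replicates 1 and 3. Replicates 2 and 4 had -0.23 and -0.39. At 7 wk the values were 0.45, -0.06, -0.12 and -0.0051, and at 9 wk -0.24, -0.02, -0.39 and -0.06. The 11 wk values, -0.20, -0.28, -0.49 and -0.11, were all negative like those of 9 wk. Of all probes, 16.8% were negative on 4 of 4 arrays at 9 wk and 15.4% at 11 wk. The SD over arrays was 0.41 for probe 33.12.17, 0.25 for probe 33.8.12, 0.28 for GYS2 probe 12.14.15 and 0.32 for probe 41.14.11, against a median of 0.18 over all probes. These SDs exceeded those of 93.1%, 72.8%, 80.3% and 86.1% of the probes.

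**Figure D1:**
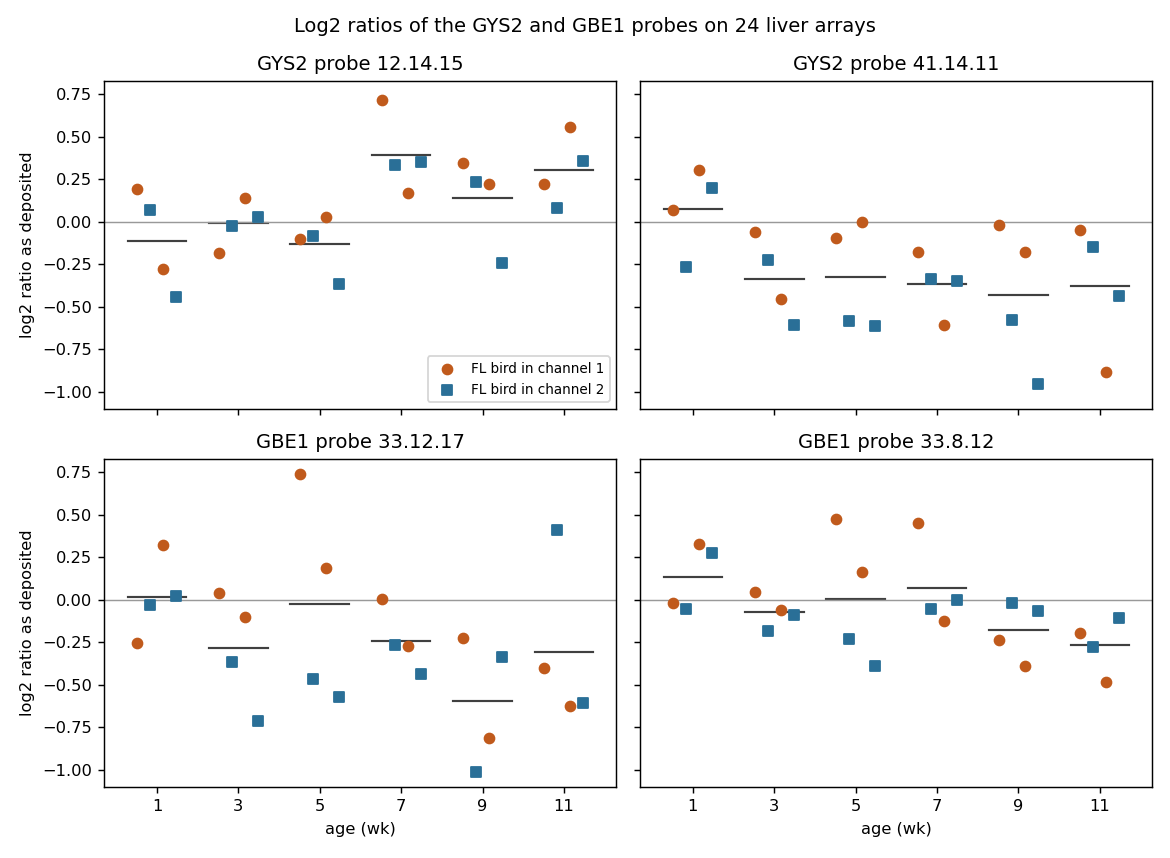
Log2 ratio as deposited (vertical axis) of the GYS2 and GBE1 probes on each of 24 liver arrays by age in wk (horizontal axis), with circles for arrays with the FL bird in channel 1, squares for the FL bird in channel 2, replicates 1 to 4 from left to right within an age, and a bar at the mean of each age. Probe 41.14.11 is below 0 on every array from 3 wk on, and probe 12.14.15 is above 0 on all arrays of 7 and 11 wk. Both GBE1 probes split by dye orientation at 5 wk, as do 45.7% of all probes.

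The disagreement between the GYS2 probes was measured directly. As deposited, probe 12.14.15 was the higher one of the same array on 20 of 24 arrays, by 0.39 ± 0.46 on the log2 scale on average (SD, n = 24 arrays; p = 0.00053, two-sided permutation test by sign changes). Their as-deposited means were 0.10 and -0.29. Turned, the means were -0.07 and -0.11, of the same sign, and the correlation was -0.44 (permutation test, adjusted p = 0.0687). A turned correlation also takes in the as-deposited means of the probes, here of opposite sign. As deposited, the correlation between them across arrays was -0.17 (permutation test, adjusted p = 0.496), and with age means removed it was 0.07. Of the 1862 genes with exactly 2 measured probes, 10.3% had a lower correlation as deposited. For these genes the median correlation was 0.19, with the middle of the distribution between -0.01 and 0.39, and 26.3% had a correlation below 0. As-deposited means of opposite sign were common, at 46.3% of such genes. A gap between these means as wide as that of GYS2 was exceeded by 8.81%, the median gap being 0.12. The mean of both probes, which stands for GYS2 in the results by gene, was thus an average of values that differed in level. No correlation between these probes passed the test. No probe sequence was used here, so which of the probes reports the GYS2 transcript could not be examined.

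As deposited, the GBE1 probes correlated at 0.63, higher than 94.4% of the 1862 genes. Their as-deposited means, -0.24 and -0.05, differed by 0.19 ± 0.32 (SD, n = 24 arrays; p = 0.00666, permutation test by sign changes). Probe 33.12.17 was the lower one on 19 of 24 arrays, and 32.5% of genes had a wider gap. Turned, the means were -0.12 and -0.05. Within arrays with the FL bird in channel 1 the correlation was 0.89 (n = 12), and within the others it was 0.06 (n = 12). The GBE1 probes therefore ran together on the arrays of 1 orientation, and the difference between the orientations was not tested.

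GYS2 probe 41.14.11 had a positive correlation with GBE1, unlike that with the other GYS2 probe. Over the turned values of 24 arrays, its Pearson correlation with GBE1 probe 33.12.17 was 0.69 and Spearman's rho was 0.70, with adjusted p = 0.0039 and 0.0067 (permutation tests, Benjamini-Hochberg adjustment over the 28 relations computed). Without the arrays farthest from the median of the GYS2 probe, r was 0.67. As deposited r was 0.58 (adjusted p = 0.014), and with the mean of each age removed it was 0.53 (adjusted p = 0.0295). It was 0.46 within the arrays with the FL bird in channel 1 and 0.60 within the others, with n = 12 each. A turned r also takes in the as-deposited means of both probes, here -0.29 and -0.24. The permutations ran over all 24 arrays and did not hold age or dye orientation fixed. Once age means are removed, values of the same age are no longer independent. The permutations ignored this, so the p-values with age means removed are likely too small. Among all probes, 1.71% correlated more highly with probe 41.14.11 as deposited than GBE1 probe 33.12.17 did, and the median correlation of probe 41.14.11 with all probes was 0.01.

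With the other GBE1 probe, 33.8.12, probe 41.14.11 correlated at 0.48 turned and 0.51 as deposited (permutation tests, adjusted p = 0.0413 and 0.0341), but with age means removed the adjusted p was 0.0687 for r = 0.43. As deposited, 3.81% of all probes correlated more highly with probe 41.14.11 than 33.8.12 did, and 8.41% correlated more highly with 33.8.12 than 41.14.11 did, the median for 33.8.12 being 0.16. Spearman's rho was 0.46 turned, with adjusted p = 0.0608. Probe 12.14.15 had the opposite sign with GBE1 probe 33.12.17, at -0.50 turned (adjusted p = 0.0341) and -0.29 as deposited (adjusted p = 0.241). Taken as genes, GYS2 and GBE1 correlated at 0.39 turned, with Spearman's rho 0.37 (adjusted p = 0.104 and 0.121), and at 0.34 without the arrays farthest from the median of GYS2. This relation of the 2 genes did not pass the test, nor did it as deposited, where r was 0.31 (adjusted p = 0.205), and it was 0.09 and 0.38 within the orientations. With age means removed, Spearman's rho of the genes was 0.49 (permutation test, adjusted p = 0.042) and Pearson's r was 0.37 (adjusted p = 0.119). These p-values are likely too small for the reason given above, so the rho is not taken as passing the test.

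**Figure D2:**
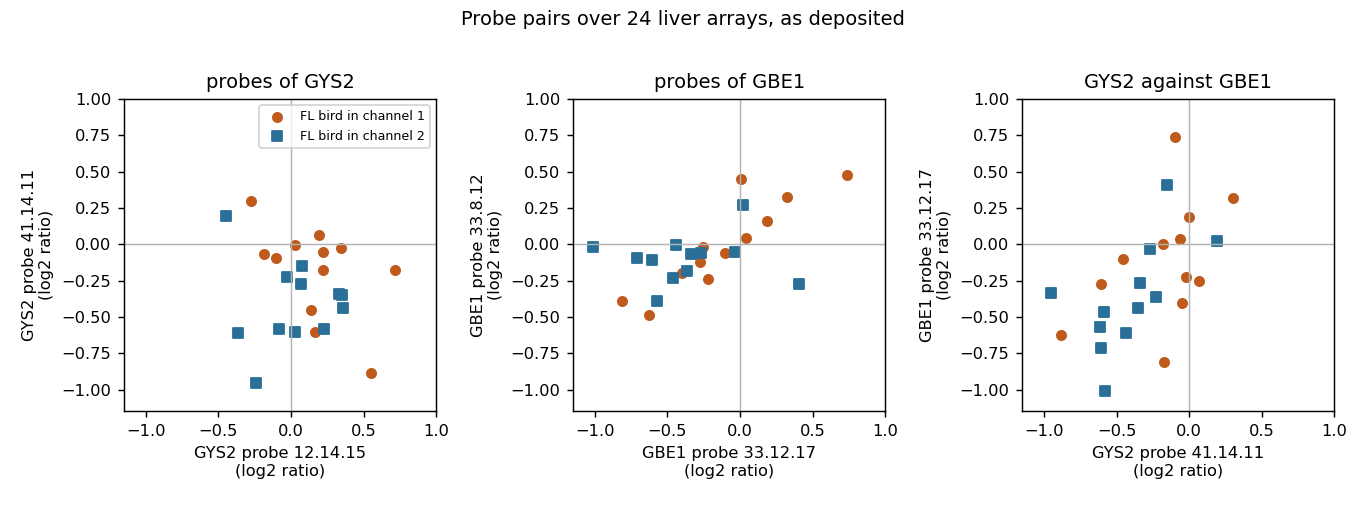
Log2 ratios as deposited on 24 liver arrays for the pair of GYS2 probes (left), the pair of GBE1 probes (middle) and GYS2 probe 41.14.11 against GBE1 probe 33.12.17 (right), with circles for the FL bird in channel 1 and squares for channel 2. The correlations are -0.17, 0.63 and 0.58.

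The first comparison asked whether the ratio differed from 0 over all ages. For the turned values GYS2 had a mean of -0.09 ± 0.03 (SE, n = 24 arrays; 95% confidence interval -0.16 to -0.02), a 1.07-fold difference, and was negative on 19 of 24 arrays. As deposited, GYS2 was negative on all 12 arrays with the FL bird in channel 2, between -0.60 and -0.0014, and on 5 of 12 with the FL bird in channel 1, between -0.22 and 0.27, so the orientations overlapped. Among all features 1.43% were negative on each of the 12 arrays with the FL bird in channel 2. The limma adjusted p was 1.00, where 0% of the 14855 features were called, and an exact permutation of dye orientation within ages gave an unadjusted p = 0.0124. For GYS2 probes 12.14.15 and 41.14.11 alone the same permutation gave unadjusted p = 0.113 and 0.066, and for GBE1 0.142. GBE1 had -0.09 ± 0.05 (95% confidence interval -0.19 to 0.02; limma adjusted p = 1.00) and was negative on 15 of 24 arrays. All 4 probes had negative turned means, from -0.12 ± 0.07 for GBE1 probe 33.12.17 to -0.05 ± 0.04 for probe 33.8.12, with -0.07 ± 0.06 and -0.11 ± 0.06 for GYS2 probes 12.14.15 and 41.14.11, and none was called (limma adjusted p = 1.00). The median over all features was -0.01, with 68.7% of them negative.

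As deposited, both genes were called in the mean over ages, with 41.3% of all features. Whether an as-deposited call belonged to the lines or to the channels could not be told apart. GYS2 had a log2 ratio of -0.10 ± 0.03 (limma adjusted p = 0.023; negative on 17 of 24 arrays) and GBE1 had -0.15 ± 0.05 (adjusted p = 0.030; negative on 17 of 24). In the negative direction 14.6% of features were called. By probe, 41.14.11 of GYS2 had -0.29 ± 0.05 (limma adjusted p = 0.00026) and 33.12.17 of GBE1 had -0.24 ± 0.07 (adjusted p = 0.011), whereas 12.14.15 of GYS2 had 0.10 ± 0.04 (adjusted p = 0.068) and 33.8.12 of GBE1 had -0.05 ± 0.05 (adjusted p = 0.36). At the level of probes 41.8% of 18963 were called. Each gene therefore had 1 probe that passed the test and 1 that did not, and the probes of GYS2 had opposite signs. Probe 12.14.15 was called positive with 1 wk replicate 4 turned (0.13; adjusted p = 0.020) and when any of 5 arrays was left out, namely 1 wk replicate 3 or 4, 3 wk replicate 1, 7 wk replicate 3 or 9 wk replicate 4 (adjusted p down to 0.028). The GBE1 call was lost (adjusted p up to 0.059) when any of 7 arrays was left out, namely 1 wk replicate 1, 3 wk replicate 4, 5 wk replicates 2 and 4, 7 wk replicate 3, 9 wk replicate 3 and 11 wk replicate 3, whereas the GYS2 call was kept in each of the 24 runs.

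Markers of the liver parenchyma were also called as deposited, where 14.6% of all features were called negative and 26.7% positive. Of 10 measured hepatocyte markers, 7 were called negative and 0 positive, with a median of -0.24 and the lowest values for APOB (-0.66), which carries lipid in lipoproteins, TTR (-0.59), a thyroid hormone carrier, and AMBP (-0.56), a protease inhibitor precursor. Markers of other cells were called positive for 2 of 4 in muscle, 2 of 4 in adipocytes, 3 of 5 in endothelium and 2 of 3 in erythrocytes, and 0 of these 4 lists held a negative call. For macrophages 2 of 8 were negative and 2 positive, for stromal cells 1 of 6 was negative and 2 positive, with the highest value of 0.46 for SPARC, and 0 of 1 lymphocyte marker was called. In the turned reading 0 of the markers were called (limma). Their part in the GYS2 and GBE1 values was not tested.

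The second comparison asked whether the ratio depended on age. In the turned reading, GBE1 began at -0.02 ± 0.12 (1 wk), passed -0.16 (3 wk) to its lowest value of -0.40 (5 wk), and then had -0.10 (7 wk), 0.03 (9 wk) and 0.14 (11 wk), with the same SE throughout. The value at 5 wk, a 1.32-fold difference, had the fifth smallest p of 14855 features at that age (limma unadjusted p = 0.004, adjusted p = 1.00, with 0% of features called), and it was carried by both probes, with -0.49 ± 0.17 and -0.32 ± 0.11. A limma unadjusted p of 0.004 is large for this rank among 14855 tests, so the lack of calls does not show that no difference existed. As listed above, the dye orientations did not overlap at 5 wk on either GBE1 probe. However, 45.7% of all probes separated the orientations at 5 wk, and an exact permutation of 4 arrays cannot give a p under 0.333. Neither the change across ages (interaction, adjusted p = 1.00) nor the linear trend from 1 to 11 wk (0.24 ± 0.15; adjusted p = 1.00) passed the test.

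GYS2 turned had, in order of age, -0.09, -0.03, -0.18, -0.01, -0.24 and 0.0010, each ± 0.08, with an interaction adjusted p of 1.00 in limma. Its lowest ages, 5 and 9 wk, were also the lowest of probe 41.14.11, at -0.27 and -0.33 ± 0.14.

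As deposited, GBE1 declined from 0.07 ± 0.13 at 1 wk to -0.39 at 9 wk (limma adjusted p = 0.043) and -0.29 at 11 wk (adjusted p = 0.18), with -0.18, -0.01 and -0.09 at 3, 5 and 7 wk. The 9 wk value, 1.31-fold, was called along with 16% of features, and by probe it was called for 33.12.17 (-0.60 ± 0.18; adjusted p = 0.023) with 17% of probes. All 4 arrays of 9 wk were negative for GBE1, at -0.23, -0.51, -0.60 and -0.20, as for 16.5% of features. The GBE1 call at 9 wk was lost when any of 10 arrays was left out, namely 1 wk replicate 2, 3 wk replicates 2, 3 and 4, 5 wk replicate 3, 7 wk replicate 2, 9 wk replicates 1, 2 and 3 and 11 wk replicate 4, with the adjusted p between 0.021 and 0.26 over the 24 runs. That of its probe was lost without 9 wk replicate 2 or 3 (adjusted p up to 0.15), with scaling of the arrays (-0.54; adjusted p = 0.056) and with the 4 arrays of the age alone (adjusted p = 0.050, just over the threshold). The linear trend of GBE1 was -0.36 ± 0.15 (adjusted p = 0.21), so that the decline did not pass the test.

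GYS2 as a gene showed no call at any age as deposited, with -0.02, -0.17, -0.23, 0.01, -0.15 and -0.04 in order of age, each ± 0.08. Its probes had trends of opposite sign, and the difference between the trends was not tested. Probe 12.14.15 had -0.11, -0.01 and -0.13 in the younger birds and 0.39, 0.14 and 0.30 from 7 wk on, each ± 0.10, and the value of 7 wk was called (limma adjusted p = 0.011) with 21.9% of probes. This call was lost with scaling of the arrays (0.24, limma adjusted p = 0.158) and with array weights (0.33, adjusted p = 0.144). It was also lost when the 4 arrays of the age were fitted alone (0.39, adjusted p = 0.203). In the fit by gene, these settings turned the 3499 features called at 7 wk into 529, 757 and 0. Its trend from 1 to 11 wk was 0.44 ± 0.12 (adjusted p = 0.034, where 6.28% of probes were called), while the interaction with age was not called (adjusted p = 0.070), nor was the trend with a dye term for each age (adjusted p = 0.070). Without 7 wk replicate 1 and 11 wk replicate 4 the trend was 0.40 with an adjusted p of 0.056 and the 7 wk value was 0.30 with 0.077, and with 1 wk replicate 4 turned the trend was 0.28 with 0.295. The trend was also not called without 1 wk replicate 3 or 4, 3 wk replicate 1, 9 wk replicate 1 or 2, or 11 wk replicate 3 or 4 (adjusted p up to 0.11), and the 7 wk value not without 7 wk replicate 1 alone (0.30; adjusted p = 0.074). Probe 41.14.11 had 0.07 at 1 wk and between -0.43 and -0.32 at the later ages, each ± 0.13. It was called at 9 wk (-0.43, limma adjusted p = 0.029) along with 17% of probes. This call was lost without 9 wk replicate 2, 3 or 4 (adjusted p up to 0.24) and with the 4 arrays of the age alone (adjusted p = 0.149). Its trend was -0.37 ± 0.16 (adjusted p = 0.21) and its interaction with age had an adjusted p of 0.404, so no change with age was called for this probe.

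**Figure D3:**
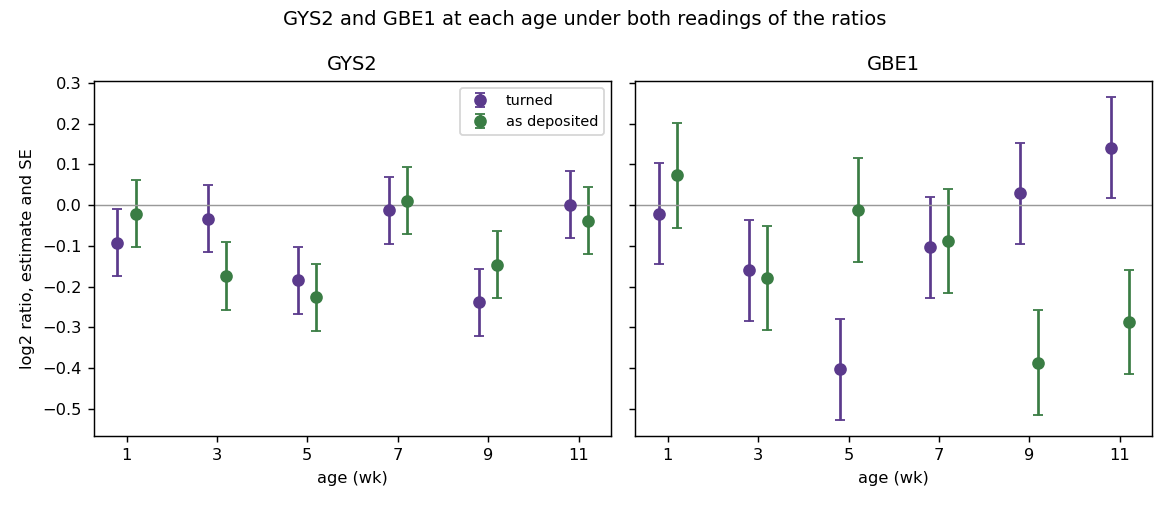
Estimated log2 ratio and SE (vertical axis) of GYS2 and GBE1 at each age in wk (horizontal axis) in the turned and the as-deposited reading, 4 arrays per age. GBE1 is lowest at 5 wk turned (-0.40) and at 9 wk as deposited (-0.39), while GYS2 stays between -0.24 and 0.01.

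Other genes of glycogen metabolism were taken from lists of 74 symbols, of which 30 were measured. Turned, 0 of the 30 were called in the mean over ages (limma), and their median was -0.02 against -0.01 for all features. As deposited, 4 were called negative and 10 positive, beside 14.6% and 26.7% of all features, and 16 were not called, with a median of 0.05 against 0.02 for all features. GYS1, the muscle synthase, was not analysed here.

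In the synthesis list, PGM1, a phosphoglucomutase, was called negative as deposited (-0.23 ± 0.04; limma adjusted p = 0.00016; negative on 20 of 24 arrays). The other 4 measured members did not pass, including UGP2, which makes UDP-glucose (-0.07 ± 0.06), and GYG1, glycogenin, the primer of the particle (-0.07 ± 0.04 as deposited and 0.08 ± 0.04 turned). In the breakdown list the phosphorylase kinase subunits PHKG1 (-0.19 ± 0.04; limma adjusted p = 0.00095) and PHKB (-0.09 ± 0.04; adjusted p = 0.046) were called negative as deposited, and 0 of the 6 measured members were called positive. Of all features, 14.6% were called negative and 26.7% positive. PYGL, the liver glycogen phosphorylase, had -0.06 ± 0.04 as deposited and -0.05 ± 0.03 turned.

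Among 12 measured regulators, 6 were called positive as deposited and 1 was called negative, beside 26.7% and 14.6% of all features. GSK3A, a kinase that inactivates glycogen synthase, had the highest value of the 30 genes at 0.36 ± 0.06 (limma adjusted p = 0.00015, positive on 21 of 24 arrays). STBD1, a glycogen-binding protein, had the lowest at -0.33 ± 0.05 (adjusted p = 7.7e-05, positive on 3 of 24). GSK3A and STBD1 were each measured by 1 probe, so no other probe could be compared. The AMP-activated protein kinase subunits PRKAG3 (0.12 ± 0.03) and PRKAB2 (0.11 ± 0.03) were called positive, while PPP1R3B, which targets protein phosphatase 1 to liver glycogen, was not called (0.05 ± 0.03). HK2, a hexokinase, had 0.17 ± 0.04 and SLC37A4, the glucose 6-phosphate transporter, 0.10 ± 0.03, and both were called, as were the glucagon receptor GCGR (0.10 ± 0.02) and the insulin receptor INSR (0.08 ± 0.02).

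At single ages, PGM1 (-0.33 ± 0.07; limma adjusted p = 0.026) and PYGL (-0.31 ± 0.07; adjusted p = 0.039) were called at 7 wk in the turned reading, where 1.1% of features were called, all negative, and where GYS2 and GBE1 had -0.01 and -0.10. Both genes were named here after their values were seen. With each array centred on its median the adjusted p was 0.15 for PGM1 and 0.16 for PYGL, with 7 features called in place of 163, and without 7 wk replicate 1 and 11 wk replicate 4 it was 0.18 and 0.29.

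**Figure D4:**
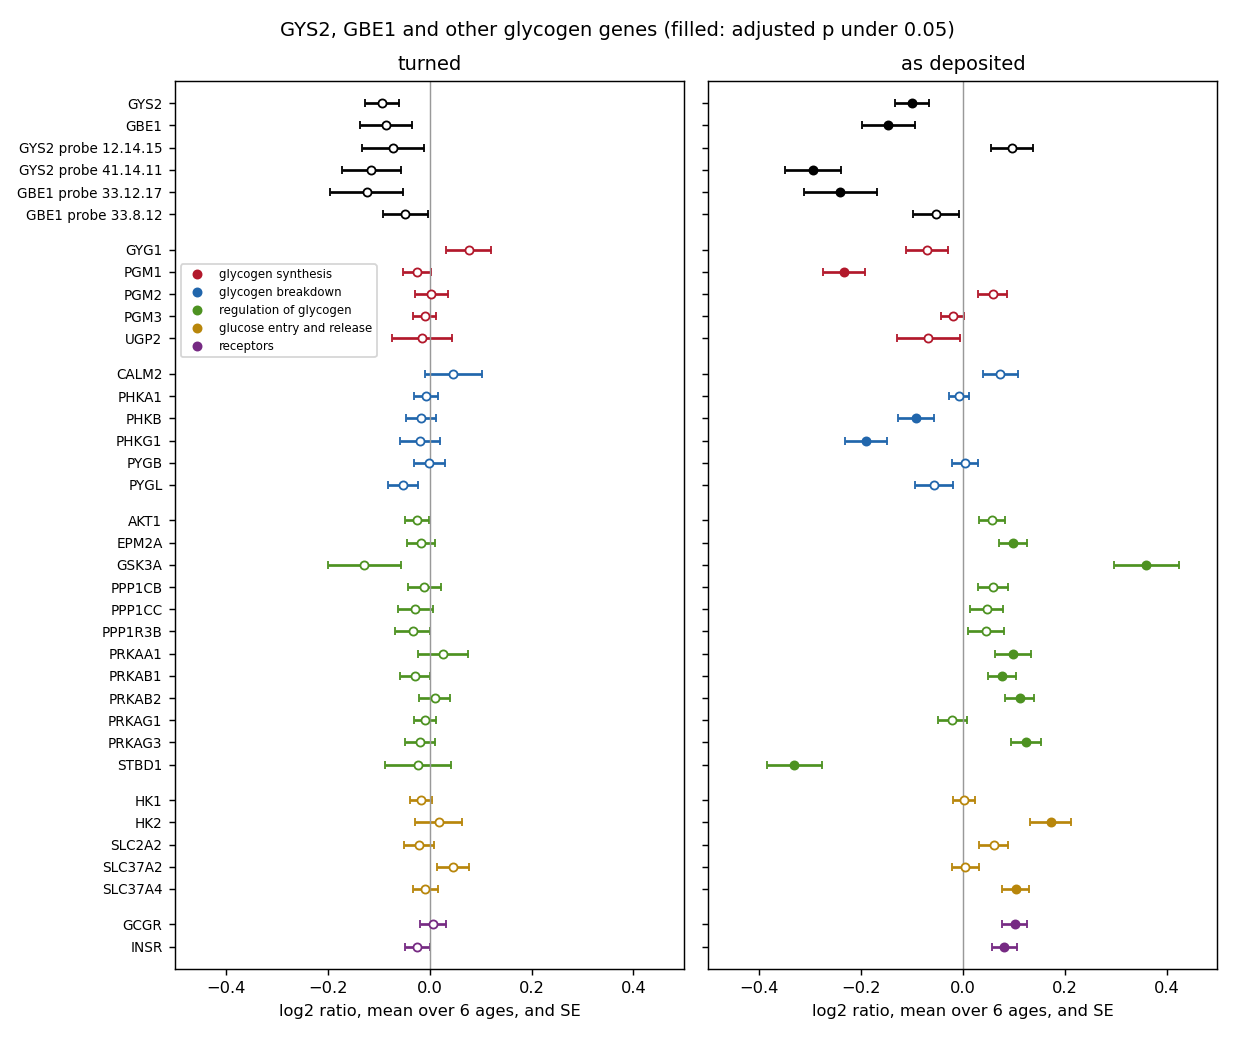
Log2 ratio averaged over 6 ages, with SE, for GYS2, GBE1, their probes and the 30 measured genes of glycogen metabolism, in the turned (left) and as-deposited (right) reading, with filled points for an adjusted p under 0.05. Turned, no point is filled, and as deposited GSK3A (0.36) and STBD1 (-0.33) are the extremes of the lists.

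The genes whose ratios followed each member most closely were found by the uncentred correlation over 24 arrays, which does not depend on how the columns are turned and is given as a description, since the columns share a common profile. For GYS2 they were SESN1 (0.76), GSS (0.75), H3F3B (0.75), PSD (0.74) and ACAT1 (0.73). GSS makes glutathione, and ACAT1 is a mitochondrial thiolase. For GBE1 they were DSTN (0.83), MTHFD2 (0.83), ZGPAT (0.82), TAPT1 (0.82) and TMPRSS6 (0.82). DSTN is an actin-severing protein, and TMPRSS6 is a hepatic protease that lowers hepcidin. GBE1 was number 580 among 6384 genes in likeness to GYS2 (0.45), and GYS2 was number 949 in likeness to GBE1.

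By probe the order differed for GYS2. Probe 41.14.11 was most like PABPC1 (0.87), FBP1 (0.87) and ACSL1 (0.86), of which FBP1 is the fructose 1,6-bisphosphatase of gluconeogenesis and ACSL1 an acyl-CoA synthetase of liver. These had as-deposited means of -0.34, -0.54 and -0.49. GBE1 was number 190 in likeness to this probe (0.70). Probe 12.14.15 was most like ASPHD1 (0.82), MMGT1 (0.82) and CCDC28A (0.82), and GBE1 was number 6061 (-0.37). The probes of GBE1 shared ZGPAT and DSTN with the gene's own order for 33.12.17, while 33.8.12 was most like DDTL (0.83), TRAK1 (0.80) and PODXL (0.78).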

How the data were processed

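Liver RNA of FL and LL chickens was compared on 24 two-colour arrays, 4 at each of 6 ages. The authors deposited 1 log2 ratio per probe and array (the base is not stated, log2 being assumed, and it could be natural). The scanner, background correction, normalization and direction of the ratio are not given in the sources used here. The paper provided with the series describes another experiment and gave no methods. No further normalization was applied. Probes of a gene were averaged, 8599 probes had no symbol, and features measured on 3 or more of the 4 arrays of every age were kept (14855 features, 18963 probes). limma (version 3.58.1, R version 4.3.3) was fitted with a coefficient for each age and 1 dye term, two-sided, with Benjamini-Hochberg adjustment over all features and a threshold of 0.05, and the fit was tested on simulated data. The number of arrays limits the precision.

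The members, the lists and the readings were chosen with earlier results of these data known, and the comparisons between probes after these values were seen. Named genes are GYS2, GBE1 and their probes, up to 4 called members of each list with the largest values (or the smallest p), and the 5 genes most like each member. Outside this rule, UGP2, GYG1, PYGL and PPP1R3B are also named, although they were not called in the mean over ages. Alternatives were centring, scaling, array weights, a replicate block, a dye term for each age, the 4 arrays of an age fitted alone, other filters, single probes and arrays left out.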

Additional observations from a re-analysis of the deposited data

Results flagged for a closer look

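GBE1 at 7 wk had 1 array far from the other 3 under either reading. As deposited it was 7 wk replicate 1, at 0.23 against values between -0.22 and -0.16, and this array had a median of 0.33 over all probes. Turned, it was 7 wk replicate 3, at 0.20 against values between -0.23 and -0.16. Of 72 groups of 4 arrays examined, 2 were singled out, where chance would single out about 1 in 20. The groups were not independent, since they held both readings and the gene averages beside their own probes. The third result is the trend of GYS2 probe 12.14.15 with age as deposited, 0.44 on the log2 scale from 1 to 11 wk (limma adjusted p = 0.034). The test for any difference among the 6 ages did not pass for this probe (interaction, adjusted p = 0.070). The trend was not called when any of 7 single arrays was left out (adjusted p up to 0.11), nor with a dye term for each age (0.070) or with 1 wk replicate 4 turned (0.28, with 0.295).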

How the results depend on the processing

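The turned means of GYS2 and GBE1 kept their sign and stayed uncalled by limma under each alternative run, arrays left out included, and an exact permutation gave GYS2 (-0.093) an unadjusted p of 0.0124. This permutation gave 0.113 and 0.066 for GYS2 probes 12.14.15 and 41.14.11 alone, and 0.142 for GBE1. When the dye term was fitted by age, 1 feature passed in the turned mean in place of 0. The 163 features called at 7 wk turned became 7 with centring, 0 with scaling or array weights, 93 with the replicate block, 292 with the dye term by age, 107 with 1 wk replicate 4 turned, 0 with the 4 arrays of the age alone and 1 without 7 wk replicate 1 and 11 wk replicate 4. With single arrays left out this count ranged from 9 (7 wk replicate 1) to 1501 (7 wk replicate 3), with 302 without 7 wk replicate 2 and 64 without 7 wk replicate 4. Values near 0 changed sign. Where GYS2 at 7 wk was -0.01 turned and 0.01 as deposited, centring gave 0.063 and -0.077, centring with scaling 0.052 and -0.064, array weights 0.089 and -0.012, and leaving out 7 wk replicate 1 with 11 wk replicate 4 gave 0.11 and -0.045. GYS2 turned at 11 wk became -0.0014 with scaling and -0.027 without those arrays. With 1 wk replicate 4 turned, the GYS2 trend was -0.042 turned and -0.012 as deposited, and at 1 wk as deposited GYS2 was 0.042 and GBE1 -0.000375.

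As deposited, GYS2 at 5 wk was called with scaling (-0.29) and array weights (-0.23), and GBE1 at 9 wk was not (-0.35 and -0.41). Of 14855 features, 11 were called at 5 wk in the main fit, 756 with scaling and 1469 with array weights. Probe 12.14.15 alone gave 0.10 for the mean, 0.39, 0.14 and 0.30 at 7, 9 and 11 wk and 0.44 for the trend, and turned 0.013 at 3 wk, -0.084 at 11 wk and -0.069 for the trend. Probe 41.14.11 alone gave 0.073, -0.37 and -0.43 at 1, 7 and 9 wk, -0.37 for the trend and, turned, 0.023 at 7 wk. For GBE1, probe 33.8.12 alone gave -0.052 for the mean and 0.0044, 0.066 and -0.18 at 5, 7 and 9 wk, and probe 33.12.17 gave -0.079 at 9 wk turned.

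With single arrays left out, GBE1 as deposited ranged from -0.18 to -0.12 in the mean, -0.20 to 0.12 at 5 wk, -0.48 to -0.28 at 9 wk and -0.44 to -0.16 at 11 wk, and turned from -0.13 to 0.14 at 1 wk and -0.12 to 0.17 at 9 wk. GYS2 as deposited ranged from -0.041 to 0.00044 at 1 wk, -0.047 to 0.13 at 7 wk, -0.22 to -0.020 at 9 wk and -0.073 to 0.038 at 11 wk, and turned from -0.066 to 0.022 at 3 wk, -0.060 to 0.11 at 7 wk, -0.022 to 0.066 at 11 wk and -0.032 to 0.049 in the trend. Between 0 and 1 feature was called in the turned mean.

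No profile of the replicate numbers recurred at all ages. Differences between replicates 1 and 3 correlated from -0.52 to 0.22 across ages and those between 2 and 4 from -0.16 to 0.27. Whether arrays were paired or shared a batch within an age could not be examined this way. With the replicate block the estimates of GYS2 and GBE1 could not move, since its terms sum to 0 within each age and dye orientation. The GYS2 mean thus stayed at -0.10 as deposited by construction. Only SEs and p-values could change, and no call of GYS2, GBE1 or their probes did. The cause of these changes was not tested. Only 4 arrays stood behind an age, ratios hold no depth or signal over background, and an exact test over the arrays of 1 age cannot give a p under 0.333.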
